A study of Mus musculus with 8 samples.

Results

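RAW264.7 cells given lipopolysaccharide (LPS) together with antibodies against CD36 for 12 h were compared with untreated RAW264.7 cells. RAW264.7 is a mouse macrophage-like line transformed by Abelson leukaemia virus, and all 8 libraries of the study came from this line, labelled as wild type. The comparison used 4 of the 8 libraries, 2 of the combination and 2 of untreated cells. It covered 10289 of the 10639 genes in the deposited table, namely those with an FPKM (fragments per kilobase of transcript, scaled to the reads of a library) of at least 1 in at least 2 of the 8 libraries. The other groups, of 2 libraries each, were LPS alone at 50 ng/mL for 12 h and anti-CD36 antibodies alone at a dilution of 1 in 100 for 12 h. They entered the fit as part of 1 estimate of the spread, and their values stand beside those of the combination. The labels of the combination give its time but neither dose, and they name no group with a control antibody. A difference between the combination and untreated cells therefore holds LPS, the antibody and the time in culture together, and these cannot be told apart in it. The combination was also tested against LPS alone.

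LPS, a component of the outer membrane of Gram-negative bacteria, is handed by CD14 to the receptor TLR4 with its partner MD-2. One branch of the signal, through the adaptor MyD88, reaches NF-kB and the MAP kinases and turns on genes of inflammatory cytokines and chemokines. The other branch, through TRIF, reaches IRF3 and interferon beta, and interferon then turns on antiviral genes. CD36 is a scavenger receptor of macrophages that takes up oxidized lipoproteins and long-chain fatty acids and can work together with Toll-like receptors. Macrophages stimulated with LPS are known for large changes in metabolism and for leaving the cell cycle.

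The promoters of 4 genes show the kinds of short motif searched for, 2 of them (Cxcl2, Isg15) from groups that were higher in the combination and 2 (Kif2c, Bnip3) from groups that were lower. They were taken from RefSeq windows (GRCm38.p6), and each gene is the one with the largest difference in its group among those with a match, within 250 bases before the start. Each stretch is written 5′ to 3′ on the strand of the gene, with the motif in capitals. Cxcl2, a chemokine for neutrophils, is shown at chr5:90903762-90903890 on the plus strand, with the NF-kB-like letters GGNNTTTCC in 2 places. Isg15, an interferon-induced ubiquitin-like protein, is shown at chr4:156200819-156200944 on the minus strand, with overlapping matches to the interferon-response-like letters GAAANNGAA. Kif2c, a kinesin of mitosis, is shown at chr4:117178810-117178935 on the minus strand, with the cell cycle homology letters TTTGAA, here read on the other strand. Bnip3, a mitochondrial protein induced by low oxygen, is shown at chr7:138909549-138909673 on the minus strand, with the hypoxia-response letters ACGTG, matched on both strands and overlapping.
Cxcl2: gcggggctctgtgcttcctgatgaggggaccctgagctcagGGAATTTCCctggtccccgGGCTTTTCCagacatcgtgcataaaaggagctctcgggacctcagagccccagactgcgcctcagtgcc
Isg15: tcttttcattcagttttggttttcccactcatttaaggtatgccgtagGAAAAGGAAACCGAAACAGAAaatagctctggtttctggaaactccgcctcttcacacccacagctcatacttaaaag
Kif2c: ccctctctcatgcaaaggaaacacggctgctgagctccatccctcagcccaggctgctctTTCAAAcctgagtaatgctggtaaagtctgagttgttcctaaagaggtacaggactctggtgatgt
Bnip3: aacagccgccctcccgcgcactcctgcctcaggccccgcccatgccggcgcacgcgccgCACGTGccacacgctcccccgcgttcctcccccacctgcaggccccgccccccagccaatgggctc

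Searched on both strands of the 10260 windows of tested genes, these motifs were found in different shares of the groups. The NF-kB-like letters stood in 40% of 10 chemokine windows and 34.6% of 26 windows of NF-kB genes and their feedback regulators, and in 5.29% of all windows. For inflammatory cytokines the share was 18.2% of 11 windows. The interferon-response-like letters stood in 33.3% of 45 windows of interferon-stimulated genes and in 6.14% of all. Their share was similar in 13 windows of antimicrobial effectors (30.8%) and in 10 chemokine windows (30%). The cell cycle homology letters stood in 36.4% of 33 windows of mitosis genes and in 10.7% of all, and CCAAT, the box read by NF-Y, in 75.8% and 35.6%. The cell cycle homology letters also stood in 33.3% of 6 growth factor windows and 25% of 24 windows of cytokine and chemokine receptors. CCAAT was as frequent, at 75.9%, in 29 windows of unfolded protein and integrated stress response genes. The hypoxia-response letters stood in 55.6% of 27 windows of hypoxia targets, in 38.9% of 36 windows of glycolysis genes and in 22.8% of all. The glycolysis share was not particular to that group, with 39.1% of 23 lysosomal windows and 42.9% of 7 windows of MAP kinase phosphatases. For cholesterol synthesis, 1 of 26 windows held the sterol-element-like letters TCACNCCAC, which is 3.85% against 1.03% of all, while CCAAT stood in 69.2%. These shares describe letters in a window and not sites in use.

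Depth recovered from the values of 125 short RNAs was 53500000 to 71700000 reads for the 4 libraries compared, so that over 2000 bp of transcript 3 reads amount to FPKM 0.0209 to 0.028, counting error alone. The table held no 0, which leaves genes without reads in some library out of view, and Il6, Il10, Il12b, Ifnb1 and Ccl2 were among the genes not analysed here. Replicates correlated at 0.992 in untreated cells and 0.994 in the combination (Pearson's r over genes on the log2 scale, a description, since genes are no replicates), and libraries of the 2 groups at 0.853 to 0.871. Whether replicates came from separate cultures is not labelled, and p-values then measure no more than the spread of these libraries, which may be technical. Mitochondrially encoded genes held 4.7% and 6.62% of the summed FPKM in untreated cells and 3.28% and 4.47% in the combination. Ribosomal protein genes held 10% and 8.03% of it in untreated cells and 14.6% and 13% in the combination. Across 10034 genes with a known exon length, the difference between the groups had a Spearman correlation with length of -0.318. The difference of replicate 2 from replicate 1 had one of 0.482 in untreated cells and 0.286 in the combination, and the fit was repeated with the length trend taken out. The median exon length was 3226 bases for genes called higher, 5390 for genes called lower and 4335 for all. Of 10 macrophage markers 9 were tested, of which 4 rose, 1 fell and 4 were not called, with Cd68 at 502 and 550.2 in untreated cells and 408 and 412 in the combination. Few markers of other cells were tested, and those of fibroblasts, epithelial cells and endothelial cells were not analysed here. Of 6 T and NK cell markers Lck was tested and rose (2 and 1.89, then 4.15 and 4.15). Of 6 B cell markers Cd79b rose (0.0753 and 0.107, then 1.46 and 0.862) and Ighm was not called (87.4 and 84.6, then 81.6 and 78.2). Of 6 granulocyte markers Csf3r was tested and not called (4.01 and 4.33, then 4 and 3.48). Of 6 dendritic cell markers Fscn1 was tested and rose (0.0537 and 0.0741, then 2.82 and 2.9), and it was also called higher than with LPS alone (1.54 and 1.69). The part of such markers in the results was not tested.

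The combination changed 6076 of 10289 genes at an adjusted p under 0.05 (59.1%; limma on log2(FPKM + 1), Benjamini-Hochberg over all genes), and 6559 passed an unadjusted p of 0.05. Of these, 1776 were higher (17.3%) and 4300 lower (41.8%) in the combination. With a log2 difference of at least 1 as well, 1976 genes passed (19.2%), 619 of them higher (6.02%) and 1357 lower (13.2%). In 8660 genes (84.2%) the 2 groups did not overlap. The median difference of all genes was -0.23 as deposited, so the split depended on scaling. It was 29.2% higher among the calls as deposited, 50.1% (2948 higher, 2937 lower) with median-ratio size factors, 45.1% with quantile normalization and 16.4% (1120 higher, 5720 lower) with mitochondrial genes left out. Those scalings moved the median of all genes to 0.0123, -0.04 and -0.498, so the median of each gene group stands beside -0.23 here. The counts of each group stand beside 17.3% of all genes higher and 41.8% lower. Rises reached further than falls, from a log2 difference of 10.44 for Csf3 to -5.09 for Ranbp3l. Genes below FPKM 1 in every library without LPS passed the filter only through the LPS groups and could hardly be called lower. Likewise, genes below FPKM 1 in every library with LPS could hardly be called higher. On the log2(FPKM + 1) scale used throughout, changes of weakly expressed genes come out too small, and each ± is the standard error of the fit with 2 libraries a group. In these bulk samples, fewer cells of a kind and less RNA per cell cannot be told apart.

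**Figure D1:**
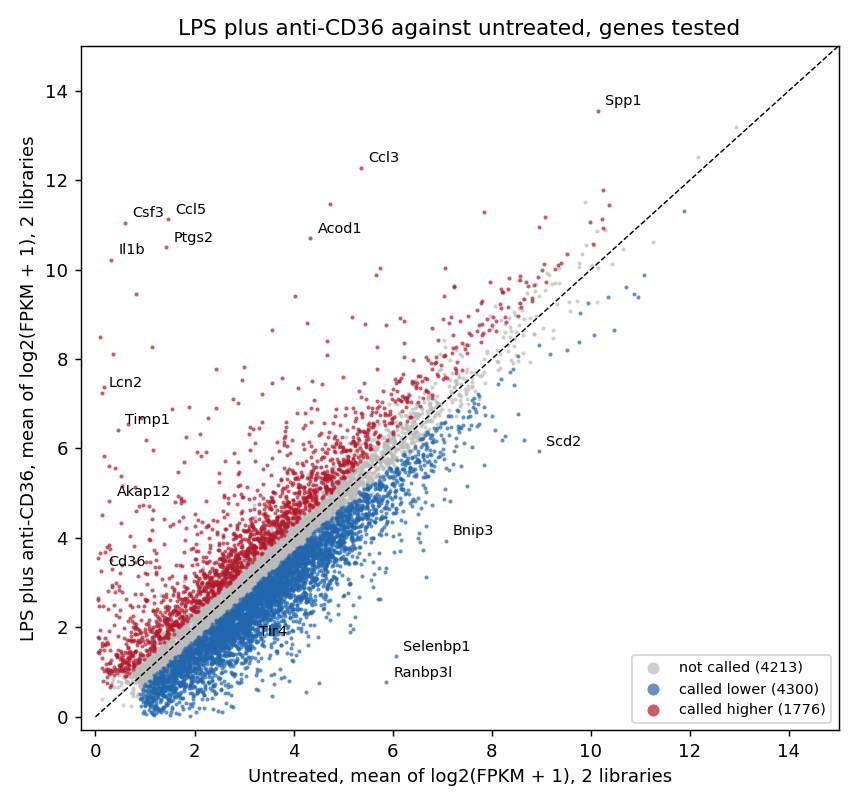
Mean log2(FPKM + 1) of the 2 untreated libraries (x axis) against that of the 2 combination libraries (y axis) for the 10289 genes tested, with the dashed line marking equal levels. The 1776 genes called higher (red) reach far above the line at low untreated levels, as Csf3 at 10.44 does, while the 4300 called lower (blue) lie closer to it.

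The antibody's target and the LPS receptor moved in opposite directions. Cd36 (chr5:17781690-17888801, minus strand) stood at FPKM 0.04 and 0.117 in the 2 untreated libraries and at 7.98 and 9.08 in the combination, a log2 difference of 3.14 ± 0.11 (adjusted p = 1.83e-06). It was at 4.71 and 5.57 with LPS alone and at 0.169 and 0.223 with the antibody alone, so both LPS groups lay above both groups without LPS. Cd36 passed the filter only through libraries with LPS, so its direction was largely set by the filter. The size of the log2 difference depends on the pseudocount at such low levels, and it was 5.63 with 0.1 and 1.41 with 5. Tlr4 (chr4:66827584-66930284, plus strand) fell from 7.18 and 8.67 to 2.09 and 2.38, by -1.46 ± 0.15 (adjusted p = 0.000154), and the groups did not overlap, as in 84.2% of all genes. The mRNA level of Cd36 says nothing of how much receptor the antibody bound.

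Inflammatory cytokines rose together. Of 14 tested members of a list of 21, 13 were called higher, 1 lower and 0 not called, with a median log2 difference of 3.36 against -0.23 for all genes. Members such as Il1b, Il1a and Lif passed the filter only through libraries with LPS, so their direction was largely set by the filter. Il1b, the secreted interleukin 1 beta, was at 0.188 and 0.307 in untreated cells and 1221 and 1156 in the combination (9.90 ± 0.11). Il1a, the partner cytokine, went from 0.0182 and 0.106 to 322 and 401 (8.41 ± 0.14). Il1rn, the antagonist that blocks the receptor of both, went from 4.4 and 4.42 to 215 and 223 (5.35 ± 0.23). Agonists and antagonist of interleukin 1 were thus all nearly silent or low before and abundant after. Lif, a cytokine of the interleukin 6 family, rose from 0.107 and 0.154 to 164 and 164. Il27, a subunit of interleukin 27, rose from 1.27 and 1.17 to 302 and 309. Tnf, the main early cytokine of macrophages and named here after its values were seen, was already at 50.8 and 55 in untreated cells and reached 1058 and 1025 (4.27 ± 0.16). Its rise was smaller on this scale than those of the interleukin 1 genes, from a higher start.

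Of 7 tested growth factors on a list of 17, 5 rose, 1 fell and 1 was not called (median 1.41). Csf3, Csf1 and Hbegf passed the filter only through libraries with LPS. Csf3 (chr11:98701263-98703629, plus strand), the granulocyte colony-stimulating factor, had the largest rise of all genes tested, from FPKM 0.153 and 0.997 to 2196 and 2034 (10.44 ± 0.25, adjusted p = 2.71e-07). Its untreated libraries differed several-fold from each other but lay far below both combination libraries. Pdgfb, a chain of platelet-derived growth factor, rose from 5.52 and 6.32 to 64.5 and 53.5. Csf1, which feeds macrophages themselves, rose from 0.129 and 0.148 to 2.22 and 1.86. Hbegf, a ligand of the EGF receptor, rose from 0.104 and 0.0981 to 1.96 and 2.04. Vegfa, the vascular growth factor, was the member that fell, from 24.6 and 28.6 to 9.8 and 8.8 (-1.42 ± 0.14). Tgfb1 was at 45.9 and 51.7 and 65.3 and 58.3 and was not called.

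Chemokines had the highest median of all lists, 5.0, with 11 of 12 tested members (of 22 listed) called higher and 0 lower. Members silent without LPS, such as Cxcl2, passed the filter only through libraries with LPS, which largely set their direction. Ccl5, which draws T cells and monocytes, went from FPKM 1.74 and 1.76 to 2691 and 1861 (9.67 ± 0.28). Cxcl2, whose promoter is printed above, went from 0.634 and 0.917 to 621 and 797 (8.64 ± 0.16). Ccl22, a ligand of CCR4, went from 0.309 and 0.24 to 278 and 277 (7.77 ± 0.14). These genes were close to silent without LPS. Ccl3 and Ccl4, the macrophage inflammatory proteins, were expressed before as well, at 40.1 and 39.7 and at 31.3 and 20.8. In the combination Ccl3 reached 4388 and 5590.2 and Ccl4 reached 3155 and 2571, among the highest levels of any gene. Cxcl14, at 1.3 and 0.756 and 1.07 and 0.849, was the member not called.

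Of 25 tested cytokine and chemokine receptors, 14 fell, 5 rose and 6 were not called (median -0.55), beside 41.8% of all genes lower and 17.3% higher. Il6ra, the interleukin 6 receptor, fell from 10.7 and 11.7 to 0.693 and 0.623 (-2.88 ± 0.12). Csf1r, the receptor for the macrophage growth factor CSF1, fell from 311 and 306 to 78.9 and 73.8 (-2.0 ± 0.12). Cx3cr1, the fractalkine receptor, fell from 108 and 113 to 27.1 and 24.5 (-2.06 ± 0.18). So Csf1 rose while its receptor fell. Csf2rb, the shared beta chain of the receptors for GM-CSF, interleukin 3 and interleukin 5, fell from 7.2 and 8.16 to 1.87 and 1.92. Tnfrsf1b, the second TNF receptor, was among the 5 that rose, from 9.37 and 9.18 to 155 and 142 (3.86 ± 0.13). The first TNF receptor, Tnfrsf1a, was at 27 and 24.1 and 21.7 and 19.2 and was not called, nor was the interferon gamma receptor chain Ifngr2.

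Among 28 tested Toll-like receptors, adaptors and kinases, 13 fell, 7 rose and 8 were not called (median -0.32), beside 41.8% of all genes lower and 17.3% higher. Beside Tlr4, the nucleic acid sensors Tlr13 (8.69 and 9.68, then 1.71 and 1.3) and Tlr9 (3.77 and 4.39, then 0.31 and 0.376) fell, at log2 differences of -2.03 and -1.92. Tlr9 passed the filter only through libraries without LPS, which largely set its direction. Cd14, which delivers LPS to TLR4, rose from 534 and 459.9 to 2108 and 1854 (1.99 ± 0.20). The downstream kinases named for the size of their difference, Ikbke and Irak2, also rose. Ikbke, the kinase that activates IRF3, went from 3.57 and 3.84 to 28.6 and 26.3. Irak2, a kinase of the MyD88 complex, went from 9.25 and 10.7 to 48.8 and 48.8. Tlr2, the receptor for bacterial lipoproteins that pairs with CD36, stayed without a call at 56 and 54.2 and 53.1 and 54, and so did Ly86.

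NF-kB subunits and their feedback regulators rose in 17 of 22 tested members, fell in 2 and were not called in 3 (median 1.27). Nfkbiz, an inducible coactivator of NF-kB, had the largest rise, from 3.56 and 4.09 to 100.4 and 103 (4.42 ± 0.11). Nfkbia, the inhibitor that NF-kB itself induces, rose from 72.6 and 67.1 to 502 and 469. Socs3, which damps signalling by interleukin 6 and G-CSF, rose from 3.82 and 3.56 to 65.4 and 55. Bcl3 and Traf1 rose by 3.05 and 2.96. Inducible regulators led the list, while the constitutive subunit Rela was at 26.6 and 27 and 21.4 and 19.4 and was not called. Of 8 tested MAP kinase phosphatases 5 rose and 0 fell (median 0.78). Dusp2 rose from 3.61 and 2.76 to 67.4 and 52.4 and Dusp5 from 1.63 and 1.6 to 13.9 and 13.2, while Dusp6 and Dusp7 were not called.

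Of 24 tested immediate early genes, 15 rose, 3 fell and 6 were not called (median 1.06). Zfp36, which destabilizes cytokine mRNAs, rose from 11.9 and 13.3 to 195 and 184 (3.81 ± 0.23). The orphan nuclear receptor Nr4a1 rose from 1.7 and 1.55 to 23 and 18.1. Atf3, a repressor of LPS-induced cytokine genes, rose from 18.3 and 16.1 to 77.4 and 59. Fos, a subunit of AP-1, rose from 2.6 and 2.33 to 13.6 and 10.3 (1.89 ± 0.18), but its partner Jun was at 16.3 and 17.9 and 15.4 and 14.3 and was not called.

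Interferon-stimulated genes rose in 33 of 48 tested members and fell in 1, with 14 not called (median 1.25). Isg15, whose promoter is printed above, went from 11.8 and 9.86 to 422 and 378 (5.08 ± 0.20). Zbp1, a sensor of Z-form nucleic acid, went from 0.417 and 0.494 to 36.1 and 33.8 (4.63 ± 0.10). Oasl1, of the oligoadenylate synthetase family, went from 17.5 and 18.9 to 449 and 442 (4.54 ± 0.12). The guanylate-binding protein gene Gbp3 and the exonuclease gene Isg20 followed, at 4.37 and 4.23. Zbp1 and Gbp3 passed the filter only through libraries with LPS, which largely set their direction. Irf7, the factor that amplifies interferon production and was named after its values were seen, rose from 24.6 and 24.1 to 279.5 and 259. Values of gene families with near-identical members, such as Gbp, Oas and Ifit genes, are uncertain because the counting of reads with several matches is not given in the sources used here. Lgals3bp and Parp12 were not called, at differences of 0.38 and 0.28.

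**Figure D2:**
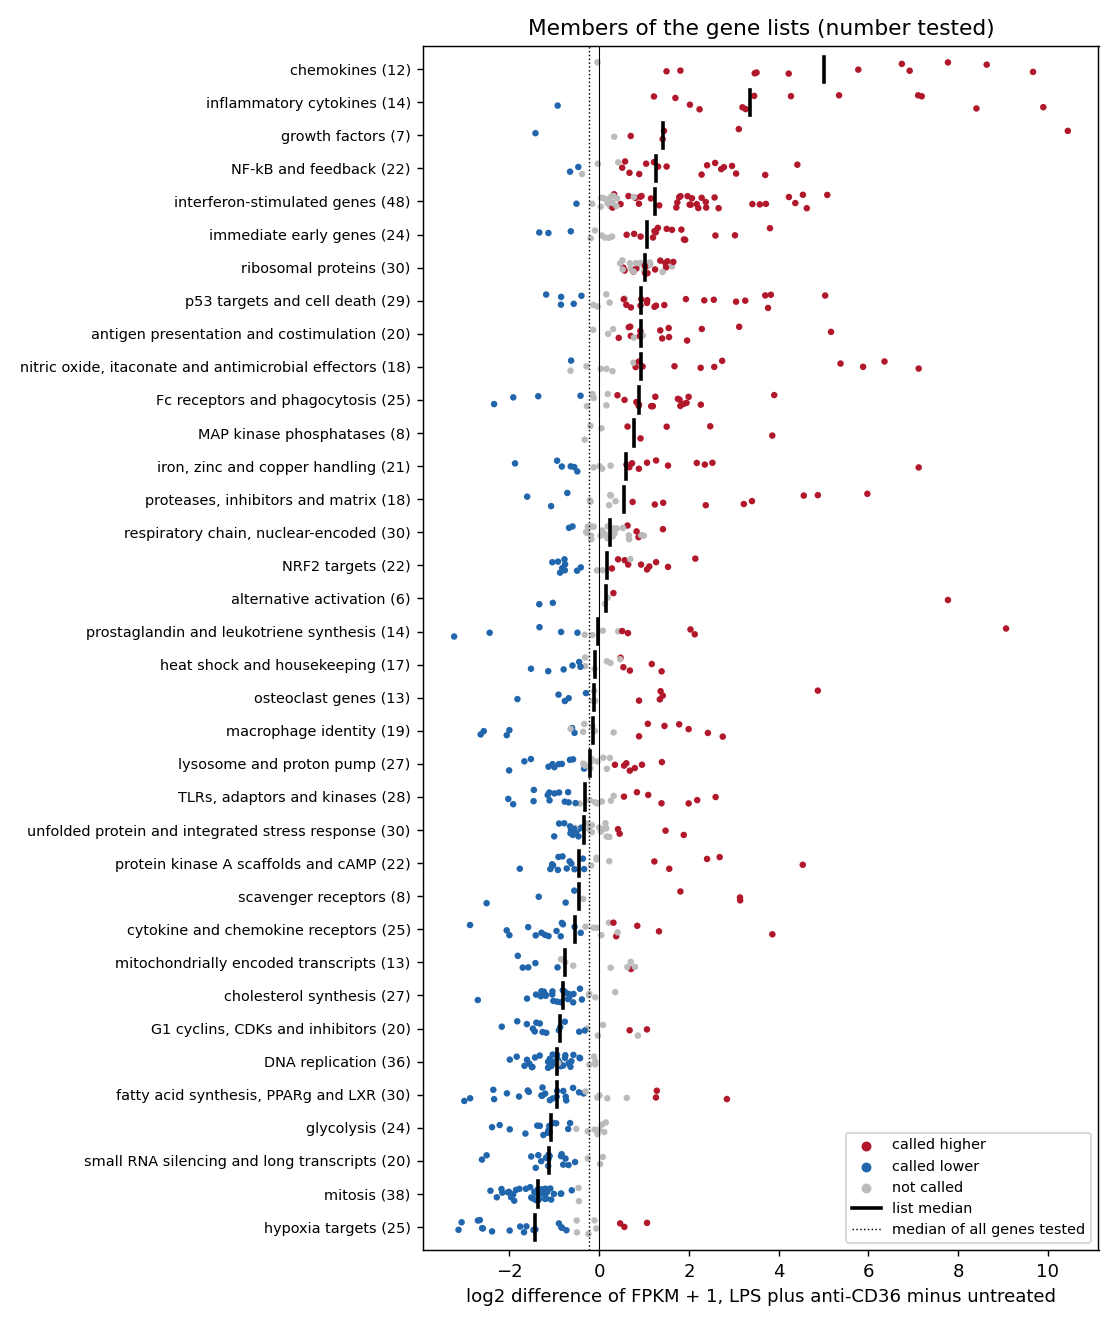
Log2 differences between the combination and untreated cells (x axis) for each tested member of the gene lists (y axis, with the number tested), coloured by call, with thick bars at list medians. Chemokines (5.0) and inflammatory cytokines (3.36) lie highest and hypoxia targets (-1.42) and mitosis genes (-1.37) lowest, beside a median of -0.23 for all genes (dotted line).

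Effectors against microbes rose in 11 of 18 tested members, fell in 1 and were not called in 6 (median 0.93). Lcn2, lipocalin 2, which withholds iron from bacteria by binding siderophores, went from 0.0959 and 0.0851 to 168 and 136 (7.12 ± 0.13). Acod1, the enzyme that makes itaconate, went from 19 and 19.4 to 1667 and 1645 (6.36 ± 0.16). Saa3, an acute phase protein, went from 0.745 and 0.433 to 114 and 74.9. Lcn2 and Saa3 passed the filter only through libraries with LPS, which largely set their direction. Slpi, an inhibitor of neutrophil proteases, rose from 18.8 and 12.6 to 735 and 632. Sod2, the mitochondrial superoxide dismutase, rose from 14.3 and 12.5 to 99.9 and 90.5. Nos2, the inducible nitric oxide synthase and named after its values were seen, rose less, from 28.2 and 31.6 to 65.5 and 53.9 (0.97 ± 0.17). The lysozyme gene Lyz2, one of the most abundant transcripts, was at 2729 and 2177 and 1699 and 1444 and missed the threshold (adjusted p = 0.0513).

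Enzymes of prostaglandin and leukotriene synthesis split, with 5 of 14 tested members called higher, 5 lower and 4 not called. Their median was -0.04, and its sign changed with scaling (0.19 with size factors, -0.27 with mitochondrial genes left out). Ptgs2, the inducible cyclooxygenase, went from 1.24 and 2.25 to 1338 and 1569 (9.07 ± 0.31). Ptgs1, the constitutive cyclooxygenase, fell from 4.94 and 4.75 to 0.101 and 0.0529 (-2.44 ± 0.13). Alox5, the enzyme that opens leukotriene synthesis, fell from 35.4 and 35.7 to 3.12 and 2.67 (-3.23 ± 0.14). Thus the 2 cyclooxygenase genes exchanged places, and the lipoxygenase gene fell with the constitutive one. Ptgs1 passed the filter only through libraries without LPS, so its direction was largely set by the filter. Ptges, the inducible prostaglandin E synthase, rose from 0.251 and 0.355 to 4.85 and 4.56, but passed the filter only through libraries with LPS. The prostacyclin receptor gene Ptgir rose from 4.74 and 5.14 to 23.5 and 23.1.

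Antigen presentation and costimulation genes rose in 15 of 20 tested members and fell in 0, with 5 not called (median 0.93). Cd40, the receptor for T cell help, went from 1.07 and 0.987 to 72.5 and 71.3 (5.17 ± 0.12). Cd80, a ligand of CD28, went from 2.53 and 2.09 to 27 and 28.5 (3.12 ± 0.12). Cd274, which encodes the inhibitory ligand PD-L1, went from 0.759 and 0.886 to 7.54 and 8.26 (2.29 ± 0.10). Cd274 passed the filter only through libraries with LPS, which largely set its direction. Stimulating and inhibiting ligands of T cells rose together. Psmb10, a subunit of the immunoproteasome, rose from 27.8 and 19.7 to 104 and 85.5. Cd74, the invariant chain of MHC class II, was at 232 and 226 and 217 and 199.7 and was not called.

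Of 25 tested Fc receptor and phagocytosis genes, 16 rose, 4 fell and 5 were not called (median 0.88). Clec4e, the lectin Mincle that binds mycobacterial glycolipid, rose from 10.9 and 10.8 to 169 and 183 (3.90 ± 0.11). Fcgr2b, the inhibitory Fc receptor, rose from 3.74 and 3.86 to 18.9 and 17.3. The integrin chain genes diverged. Itga5, of the fibronectin receptor, rose from 13 and 13 to 68.8 and 63.8. Itgal, of LFA-1, rose from 6.74 and 6.99 to 30.8 and 27.9. Itga4, of the receptor for VCAM-1, fell from 122 and 165 to 23.7 and 31.1, while Itgb1 was not called at -0.12.

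Scavenger receptors also split, with 3 of 8 tested members called higher and 4 lower (median -0.46). Beside Cd36, Msr1, the class A scavenger receptor, rose from 8.61 and 9.24 to 79.9 and 93.2 (3.14 ± 0.12). Cxcl16, a membrane-bound chemokine that binds oxidized lipoprotein, rose from 2.94 and 2.91 to 12.8 and 12.7. Scarb1, a receptor for high-density lipoprotein, fell from 20.3 and 20.9 to 7.7 and 7.31. Lrp1, a large endocytic receptor, fell from 43.1 and 49.6 to 8.11 and 6.57. Cd36 and Msr1, both for uptake of modified lipoprotein, thus rose from very different levels, while the gene for the receptor of unmodified high-density lipoprotein fell.

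Lipid synthesis and export genes fell. Of 30 tested genes of fatty acid synthesis, PPAR gamma and LXR, 22 fell, 3 rose and 5 were not called (median -0.94). Scd2, a stearoyl-CoA desaturase, fell from 491 and 494 to 59.2 and 61.6 (-3.01 ± 0.15). Scd1, its paralog, fell from 92.4 and 101 to 12.1 and 12.5. Fasn, fatty acid synthase, fell from 62.6 and 66.5 to 12.6 and 11.3. Abcg1, a cholesterol exporter and LXR target, fell from 18.2 and 17.9 to 2.81 and 2.61 (-2.36 ± 0.12). The named genes of synthesis and of efflux were thus both lower. Fabp4, a fatty acid carrier, was the largest exception, rising from 1.35 and 0.96 to 13.6 and 15.4, while its paralog Fabp5, at 112 and 75.5 and 153 and 131, was not called.

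Of 27 tested genes of cholesterol synthesis, 23 fell, 0 rose and 4 were not called (median -0.81). Sqle, squalene epoxidase, fell from 46.3 and 49.2 to 14.8 and 15.2 (-1.61 ± 0.10). The mevalonate pathway genes Mvk and Mvd fell by -1.41 and -1.29, and Insig1, which holds SREBP in the endoplasmic reticulum, by -1.30. With LPS alone Sqle was at 14.2 and 15.8. Ebp and Sc5d were not called.

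Hypoxia targets had the lowest median of all lists, -1.42, with 17 of 25 tested members called lower, 3 higher and 5 not called. Bnip3, whose promoter is printed above, fell from 133 and 135 to 14.6 and 14 (-3.13 ± 0.17, adjusted p = 9.71e-06). Ndrg1, a stress-responsive gene, fell from 50.6 and 52 to 5.75 and 4.77 (-3.07 ± 0.15). Bnip3l, which like Bnip3 marks mitochondria for removal, fell from 53.8 and 58.9 to 8.87 and 7.95. These genes were abundant in untreated cells and low in the combination. Egln1, an oxygen-sensing prolyl hydroxylase, fell from 34.5 and 36.8 to 4.73 and 4.53. The corepressor gene Rcor2 fell from 15.1 and 16 to 1.59 and 1.66. Hmox1, a heme oxygenase that also answers to oxidative stress, rose from 112 and 121 to 257 and 233, and P4ha1 and Mif were not called.

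Glycolysis genes fell in 16 of 24 tested members, rose in 0 and were not called in 8 (median -1.07). Pdk1, the kinase that keeps pyruvate out of mitochondria, fell from 28.3 and 29.4 to 4.65 and 4.75 (-2.39 ± 0.12). The phosphofructokinase genes Pfkl and Pfkm fell by -2.22 and -1.99, Pfkl from 74.3 and 67.3 to 15.8 and 13.2. Pgam1, phosphoglycerate mutase, fell from 901 and 842 to 357 and 312. Pgk1 was at 1186 and 924 and 1171 and 1019.9 and Eno1 at 823 and 705 and 547 and 524, and neither was called. Ak4, an adenylate kinase of the mitochondrial matrix and on neither list, fell from 60.3 and 54.5 to 9.66 and 8.49.

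**Figure D3:**
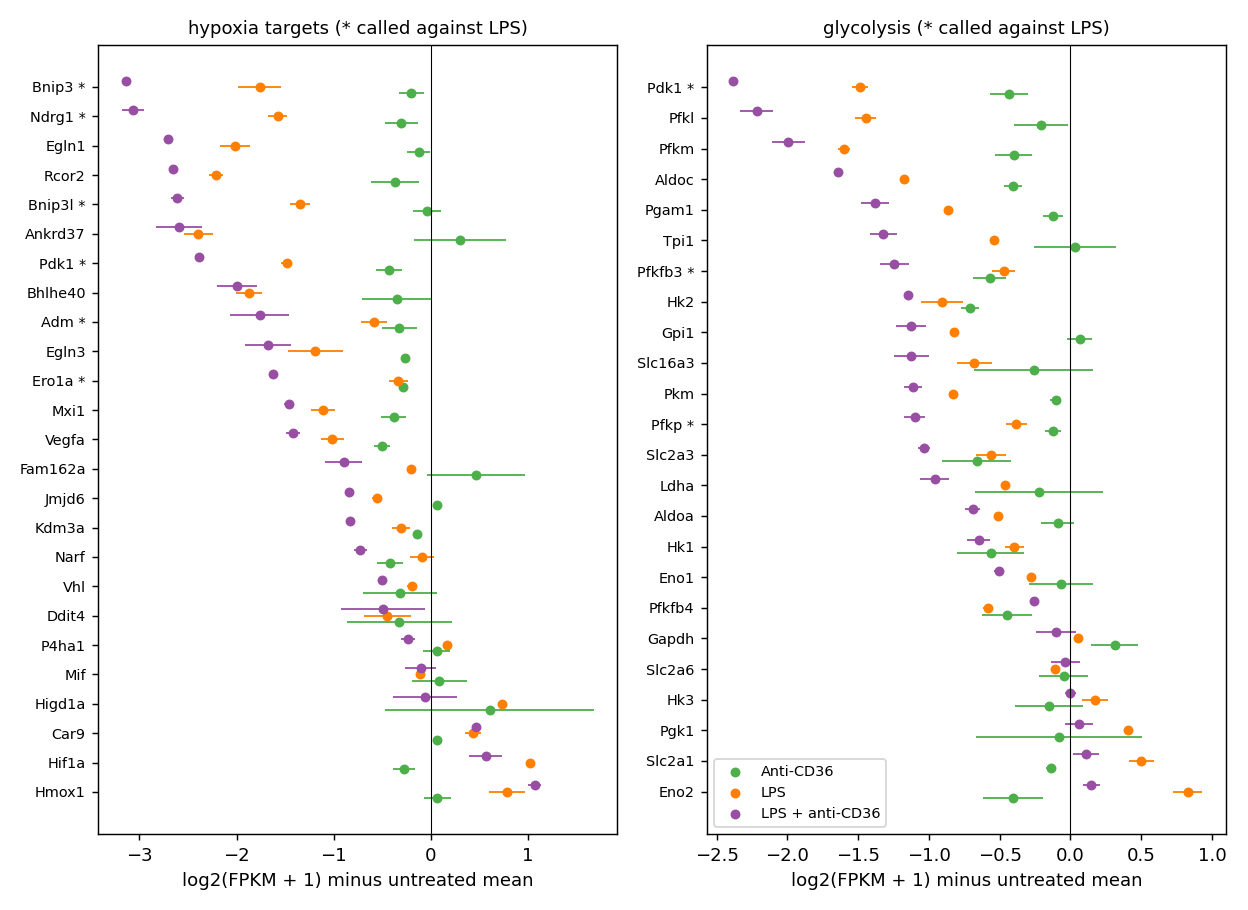
Mean log2(FPKM + 1) minus the untreated mean (x axis) for hypoxia targets (left) and glycolysis genes (right) with anti-CD36, LPS and both, with lines spanning the 2 libraries of each group. The combination lies furthest left for Bnip3 at -3.13 and Pdk1 at -2.39, and a star marks genes called between the combination and LPS alone, of which 6 are hypoxia targets and 3 glycolysis genes.

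Most nuclear genes of the respiratory chain were not called, and mitochondrially encoded ones changed in part. Of 30 nuclear-encoded respiratory chain genes, 24 were not called, 4 rose and 2 fell, and the median of 0.25 turned to -0.06 with mitochondrial genes left out. The share called was 20% of the list and 59.1% of all genes. Replicates of this list spread, with summed FPKM of 3170 and 2570 in untreated cells and 2480 and 3820 with the antibody alone. The part of this spread in the low share called was not tested, and a gene not called is not shown to be unchanged. Cycs, cytochrome c, rose from 57.6 and 61.1 to 98 and 116 and Atp5b was not called at 510.0 and 444 and 497 and 497. Among 13 mitochondrially encoded transcripts, 5 fell, 1 rose and 7 were not called (median -0.76). ND1 and ND2, subunits of complex I, fell from 1701 and 2319 to 575 and 765 and from 1222 and 1628 to 354 and 453. COX1, the most abundant of them, was at 6862 and 8980.3 and 8162 and 10773 and was not called. The calls of ND1, ND2, ND3, ND4L and CYTB were each lost without the second untreated library or without the first combination library, with adjusted p up to 0.204. The first anti-CD36 library, at 7395 for ND1, stood far from its replicate at 3229.

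Genes of cell division fell nearly throughout. Of 38 mitosis genes, 36 fell, 0 rose and 2 were not called (94.7% called, median -1.37). Plk1, the polo-like kinase that drives entry into mitosis, fell from 69.2 and 70 to 11.9 and 12.4 (-2.42 ± 0.26). Foxm1, the transcription factor of mitotic genes, fell from 30.3 and 32.1 to 5.7 and 5.55 (-2.28 ± 0.18). Kif2c, whose promoter is printed above, fell from 23.5 and 23.6 to 4.52 and 4.31 (-2.18 ± 0.10). Levels with LPS alone were 13.1 and 14.3 for Plk1, 7 and 6.68 for Foxm1 and 4.14 and 4.29 for Kif2c. Ccna2, cyclin A2, fell from 65.9 and 71.3 to 13.8 and 18.4. The 2 members not called were Cdk1 (36.1 and 28.5, then 22.3 and 23.8) and Pttg1. Both were lower in each combination library than in each untreated one, but the groups did not overlap in 84.2% of all genes.

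Of 36 DNA replication genes, 31 fell, 0 rose and 5 were not called (median -0.94). Dnmt1, which copies DNA methylation, fell from 87.7 and 93.9 to 22.6 and 21.5 (-1.99 ± 0.18). Mcm7, a subunit of the replicative helicase, fell from 85.6 and 79.9 to 26.1 and 24.8. Pole, a DNA polymerase catalytic subunit, fell from 10.5 and 11.9 to 2.5 and 2.31. Lig1 and Uhrf1 fell by -1.61 and -1.56. Of 20 tested G1 cyclins, kinases and inhibitors, 14 fell, 2 rose and 4 were not called (median -0.88). E2f8 and E2f7, repressors of the E2F family, fell by -2.17 and -1.61, and Rbl1 and Rb1, of the retinoblastoma family, by -1.83 and -1.44. Ccne1, cyclin E1, was at 22 and 21.1 and 20.9 and 21.3 and was not called, although Ccne2 fell from 7.93 and 10.7 to 2.04 and 3.42.

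Genes of p53 and cell death rose in 19 of 29 tested members and fell in 5, with 5 not called (median 0.94). Plk2, a polo-like kinase induced by stress, rose from 0.8 and 0.901 to 25.9 and 24.7 (3.83 ± 0.12), and Plk3 from 3.19 and 3.61 to 58.5 and 54 (3.70 ± 0.11). These 2 relatives thus rose as Plk1 fell. Gadd45b, a stress sensor induced by NF-kB, rose from 8.82 and 7.28 to 90.2 and 80.4. The survival genes Bcl2a1a (3.11 and 2.3, then 124 and 116) and Bcl2a1d (39.9 and 31.4, then 501 and 485) rose, and as near-identical copies they may share reads. Bax, a promoter of apoptosis, was at 74 and 54.1 and 103 and 86.1 and was not called, nor was the survival gene Mcl1.

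Stress responses were mixed. Of 30 genes of the unfolded protein and integrated stress response, 13 fell, 4 rose and 13 were not called (median -0.33), beside 41.8% of all genes lower and 17.3% higher. Ddit3, the transcription factor CHOP, rose from 5.18 and 5.35 to 22 and 22.3, and Asns, asparagine synthetase, from 56.5 and 53.4 to 153 and 157. Xbp1, the transcription factor of the unfolded protein response, fell from 92.7 and 84 to 52.6 and 49.5. The chaperone gene Hspa5, at 356 and 339.6 and 337 and 358, was not called. Of 22 tested NRF2 targets 10 rose and 9 fell, and their median of 0.18 changed sign with scaling (-0.12 with mitochondrial genes left out). Sqstm1, the autophagy receptor p62, rose from 77.4 and 69.7 to 346 and 311 (2.14 ± 0.14). Slc7a11, the cystine importer, rose from 2.78 and 3.41 to 7.96 and 7.76.

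Metal handling genes rose in 11 of 21 tested members and fell in 6 (median 0.61). Tfrc, the transferrin receptor that brings iron in, rose from 13 and 14.4 to 61.9 and 68.9 (2.18 ± 0.21). Fth1 and Ftl1, the ferritin chains that store it, rose from 1255 and 1167 to 3605 and 3413 and from 431 and 338 to 975 and 868. Uptake and storage thus rose together, along with Lcn2. Cp, the copper oxidase ceruloplasmin, rose from 2.62 and 3.46 to 20.2 and 24.3, and the copper transporter gene Slc31a2 from 5.38 and 4.73 to 31.8 and 28.1. Atp7b, a copper exporter, fell from 2.44 and 3.07 to 0.0277 and 0.0115.

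Proteases, their inhibitors and matrix genes rose in 9 of 18 tested members and fell in 3 (median 0.56). Mmp9, gelatinase B, went from 0.503 and 0.351 to 44.6 and 37.2 (4.87 ± 0.13). Timp1, an inhibitor of such metalloproteases, went from 0.445 and 0.283 to 85.8 and 83.7 (5.98 ± 0.15). Timp1 passed the filter only through libraries with LPS, which largely set its direction. Spp1, osteopontin, was among the most abundant genes before, at 1090.4 and 1172, and reached 11393 and 12609. Members of the plasminogen system diverged. Plaur, the urokinase receptor, rose from 7.34 and 7.87 to 81.1 and 77.6. Plau, urokinase itself, fell from 31.2 and 27.9 to 13.9 and 13.2 (-1.07 ± 0.17).

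Lysosomal genes showed no common direction, with 11 of 27 tested members called lower, 7 higher and 9 not called, and a median of -0.20 that was 0.10 with size factors. Among all genes, 41.8% were lower and 17.3% higher. Laptm5, a lysosomal membrane protein of blood cells, fell from 288 and 299.9 to 79.2 and 66. Psap, the precursor of the saposins, fell from 277 and 261 to 89.1 and 78.9, while Npc2, a cholesterol carrier, rose from 45.3 and 36.6 to 111 and 107. Genes of macrophage identity likewise split into 7 higher and 6 lower of 19 tested, with a median of -0.15 that was 0.13 with size factors. Adgre1, which encodes F4/80, rose from 13.8 and 12.2 to 80.1 and 68.4 (2.42 ± 0.15). Siglec1, a sialic acid receptor induced by interferon, rose from 1.71 and 1.98 to 19.3 and 17.1. Trem2, a lipid-binding receptor, fell from 28.3 and 23.4 to 3.82 and 3.2 (-2.57 ± 0.26), as Csf1r and Cx3cr1 did.

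Ribosomal protein genes rose in 15 of 30 members, fell in 0 and were not called in 15 (median 1.02). Their values are uncertain because of their many processed copies, and they spread widely between replicates. Rpl37 was at 50.4 and 36.8 in untreated cells and 162 and 117 in the combination, and Rplp1, at 1301 and 683 and 3544 and 2381, was not called. Very long transcripts and genes of small RNA silencing fell in 17 of 20 members and rose in 0 (median -1.12). Ahnak, a giant scaffold protein, fell from 25.9 and 32.3 to 3.78 and 4, and Dgcr8, which helps cut microRNA precursors, from 5.42 and 5.58 to 1.24 and 1.31. Flna, also long, was not called at 80.1 and 80.2 and 90 and 79.7. Short genes thus leaned up and long genes down, as the length relation above gives for all genes. With the length trend taken out, the medians of these 2 lists were 0.78 and -0.76, and 5677 of 10034 genes were called, 34.3% of them higher.

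The largest falls were of genes outside most of these lists. Ranbp3l (chr15:8967949-9067335, plus strand), an exporter of SMAD proteins from the nucleus, fell from FPKM 51.4 and 63.7 to 0.824 and 0.594 (-5.09 ± 0.15, adjusted p = 7.52e-07). Selenbp1, a selenium-binding protein with methanethiol oxidase activity, fell from 71.4 and 61.4 to 2.02 and 1.16 (-4.72 ± 0.26). Scel, sciellin of the cornified envelope, fell from 15.6 and 20.6 to 0.516 and 0.418. Each of these was well expressed in untreated cells and close to silent in the combination. Arrb1, beta-arrestin 1, which turns off and redirects G protein-coupled receptors, fell from 34.5 and 33.8 to 2.82 and 2.6 (-3.25 ± 0.11). Lpar5, a receptor for lysophosphatidic acid, fell from 11.7 and 10 to 0.432 and 0.333. Scel and Lpar5 passed the filter only through libraries without LPS, which largely set their direction. Dntt, the terminal transferase of lymphocyte precursors, fell from 14.7 and 13.5 to 0.664 and 0.807, and Cd24a, a surface glycoprotein of early blood cells, from 32.4 and 36 to 2.84 and 3.55. Both are genes of lymphoid or early blood cells that untreated RAW264.7 cells expressed. Kbtbd11 fell from 104 and 97.6 to 7.79 and 7.79, Rere, a corepressor, from 48.3 and 56.9 to 5.23 and 5.19, and Gucy2g, a guanylate cyclase, from 13.8 and 12.1 to 0.955 and 0.764. A microRNA precursor gene that the rule also took is not described here.

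**Figure D4:**
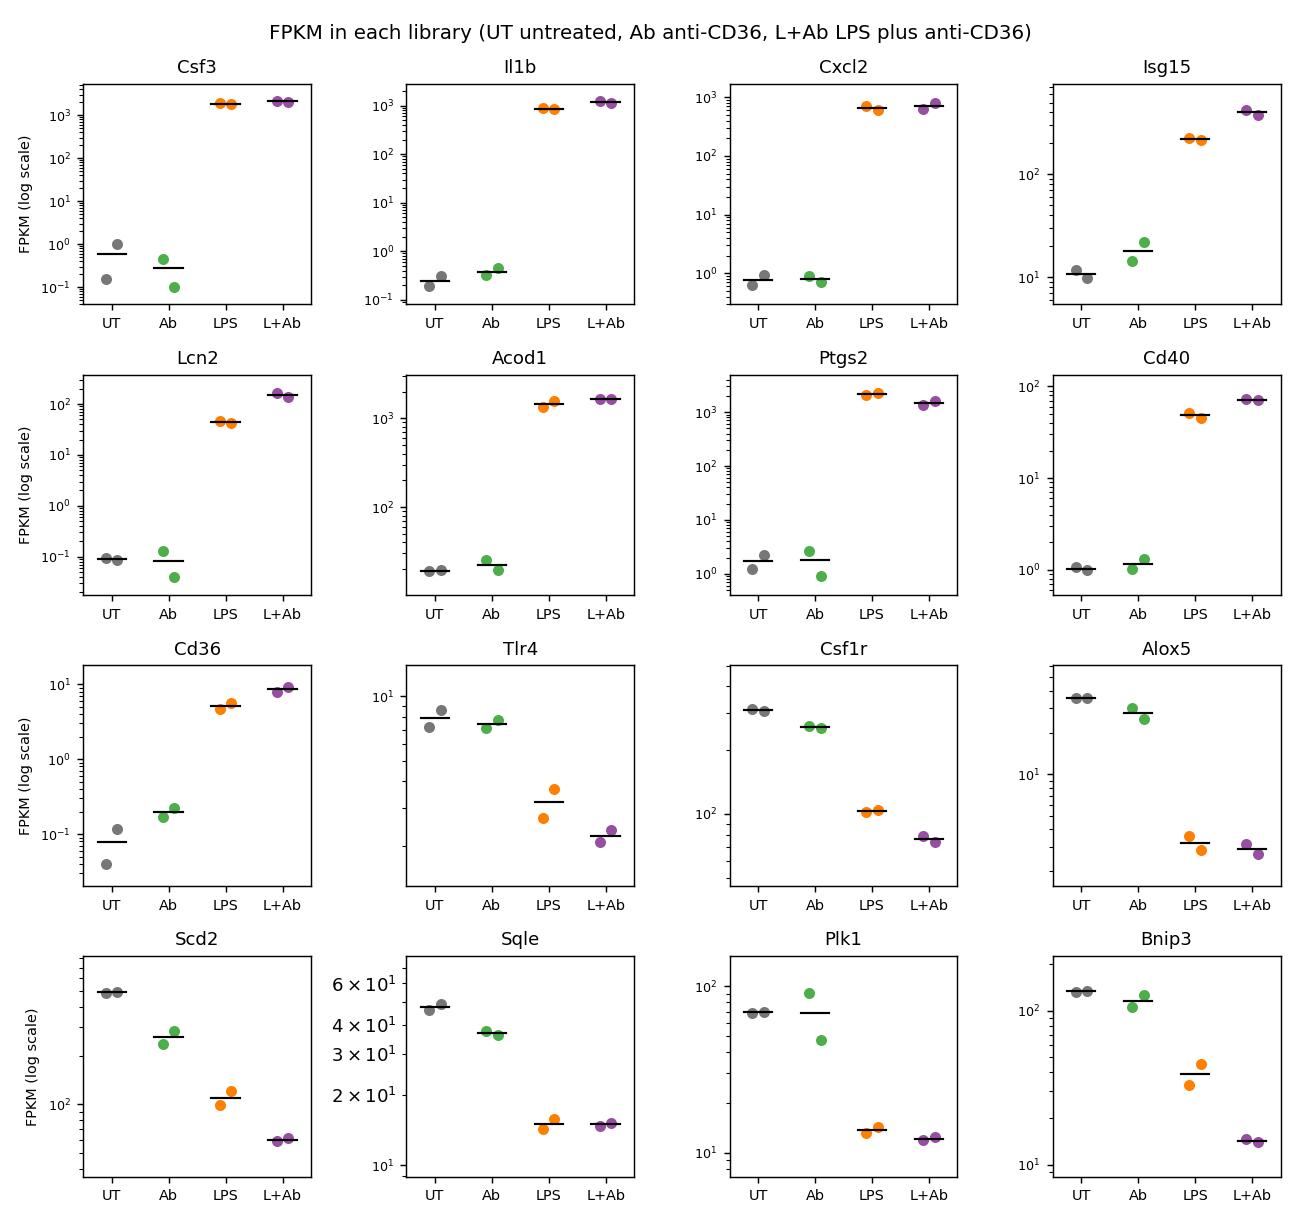
FPKM (log axis) of 16 named genes in each of the 8 libraries, with points for libraries and bars for the mean of 2. Both LPS groups lie far above the groups without LPS for Csf3 (2196 and 2034 in the combination) and Cd36, and below them for Tlr4, Csf1r, Alox5, Sqle, Plk1 and Bnip3 (14.6 and 14).

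Few genes were called between the combination and LPS alone in the fit of all 8 libraries. In that comparison 183 of 10289 genes were called (1.78%), 37 higher (0.36%) and 146 lower (1.42%) in the combination, and 2005 passed an unadjusted p of 0.05. With a log2 difference of at least 1, 37 passed (0.36%), 9 higher (0.0875%) and 28 lower (0.272%). The count was 2307 with only the 2 groups compared, and it changed when single libraries were left out. It was 1 without either LPS library or without the first combination library, 3 without the second, 45 and 52 without the first and second untreated library, and 1427 and 1431 without the first and second anti-CD36 library. Of 32 named genes called here, Akap12 alone was called under every alternative run. The calls of the others were each lost under at least 1 alternative. Leaving out 1 of 2 libraries in a group also widens the standard error. A call lost that way does not show that a single library carried it.

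Akap12 (chr10:4266380-4359470, plus strand), a scaffold that gathers protein kinase A and protein kinase C at the membrane, was at FPKM 0.139 and 0.292 in untreated cells, 0.152 and 0.0932 with the antibody, 1.95 and 1.98 with LPS and 25.7 and 28.8 with both. The 2 combination libraries lay above the other 6, with a log2 difference of 4.54 ± 0.11 from untreated cells and 3.25 ± 0.11 from LPS alone (adjusted p = 5.03e-05). Akap12 passed the filter only through libraries with LPS, which largely set the direction of its rise from untreated cells. Non-overlap with untreated cells and with LPS alone was a condition for naming it. Of 22 tested genes of protein kinase A scaffolds and cAMP, 13 fell and 5 rose against untreated cells (median -0.46), and 2 were called higher than with LPS alone. The other was Adora2a, an adenosine receptor that raises cAMP, at 0.375 and 0.255 in untreated cells, at 2.9 and 3.14 after LPS and at 6 and 5.91 in the combination. Its relative Adora2b rose against untreated cells, from 2.38 and 2.07 to 20.3 and 19.2, and was at 14.2 and 14.2 with LPS (not called against LPS).

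Several genes that rose against untreated cells were higher still than with LPS alone. Lcn2 was at 46.6 and 42.1 with LPS and 168 and 136 with both, a difference of 1.74 ± 0.13 (adjusted p = 0.00879). Timp1 was at 26.3 and 24.4 with LPS and 85.8 and 83.7 with both (1.70 ± 0.15, adjusted p = 0.0101). Mcemp1, a mast cell and monocyte membrane protein, was at 4.14 and 3.5 with LPS and 18.2 and 13.1 with both (1.78 ± 0.16). In each of these the 2 combination libraries lay above the 2 LPS libraries, but non-overlap with LPS was a condition for naming them. Vgf, a neuropeptide precursor, was at 5.07 and 4.93 and 14.5 and 12.4, and Fos at 3.65 and 5.29 and 13.6 and 10.3. Ccl22 and Il1a were also called, at 1.19 and 0.98, and Cd36 at 0.64 (adjusted p = 0.0449, up to 0.289 over the alternatives).

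**Figure D5:**
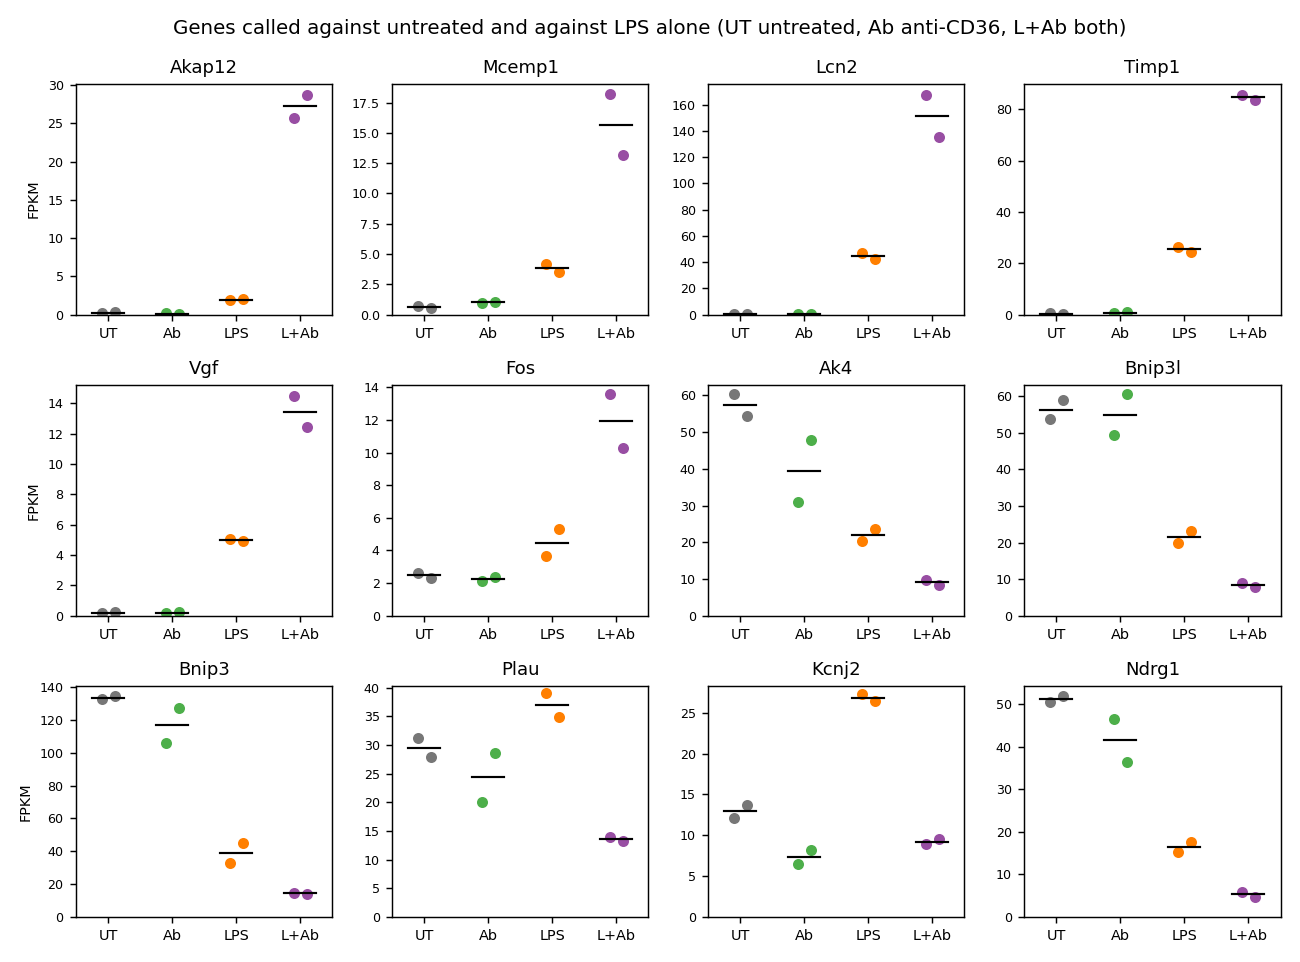
FPKM in each library of the 12 genes with the largest differences from LPS alone among those called in both comparisons, with points for libraries and bars for the mean of 2. Akap12 stands out with 25.7 and 28.8 in the combination beside 1.95 and 1.98 with LPS, while Kcnj2 and Plau are higher with LPS alone than in either untreated or combination libraries.

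Some hypoxia targets and glycolysis genes were lower in the combination than with LPS alone. As for the count of all genes, 0 genes were called lower without either LPS library or either combination library (925 to 1433 genes at an unadjusted p under 0.05, limma). Of 25 hypoxia targets 6 were called lower than with LPS and 0 higher, beside 1.42% of all genes called lower, and of 24 glycolysis genes 3 lower and 0 higher. Bnip3 was at 32.9 and 45.3 with LPS and 14.6 and 14 with both (-1.37 ± 0.17, adjusted p = 0.0197). Ndrg1 was at 15.4 and 17.7 and 5.75 and 4.77 (-1.49 ± 0.15, adjusted p = 0.0116). Pdk1 was at 9.24 and 10.1 and 4.65 and 4.75 (-0.90 ± 0.12). The list medians against LPS were -0.46 and -0.39, beside -0.02 for all genes. With the antibody alone Bnip3 was at 106 and 127 and Ndrg1 at 46.7 and 36.5, between the untreated and the LPS libraries. For these genes LPS alone gave an intermediate level, and the combination the lowest of the 4 groups.

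Kcnj2 and Plau moved against LPS. Kcnj2, an inward-rectifier potassium channel, was at 12.1 and 13.8 in untreated cells, at 27.2 and 26.5 after LPS and at 8.88 and 9.5 in the combination. With the antibody alone Kcnj2 was at 6.52 and 8.16, below the untreated libraries. It was lower in the combination than with LPS (-1.45 ± 0.13, adjusted p = 0.0101) and lower than in untreated cells (-0.45 ± 0.13), the latter call being lost with quantile normalization, with size factors, with the length trend removed and without the second untreated or either combination library (adjusted p up to 0.222). Plau was at 20.1 and 28.6 with the antibody alone, 39 and 34.9 with LPS and 13.9 and 13.2 with both (-1.38 ± 0.17 against LPS, adjusted p = 0.0197). Plk2 and Dusp4 rose against untreated cells but stood lower than with LPS alone, Plk2 at 42.5 and 48.7 with LPS and Dusp4 at 57.2 and 59. Dusp4 was at 23.3 and 23.3 in untreated cells and at 11.1 and 11.8 with the antibody alone. Between the combination and LPS alone, 0 of 38 mitosis genes, 0 of 36 DNA replication genes and 0 of 27 cholesterol synthesis genes were called, with medians of -0.03, 0.10 and -0.11. With 1.78% of all genes called there, a count of 0 in lists of this size is near the background.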

How the data were processed

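RNA of 8 RAW264.7 libraries, in 4 groups of 2 set by the labels alone, was extracted with Trizol and sequenced after an Illumina preparation, per the labels' protocols. 10x Genomics also stands in the labels, yet each library has a single value per gene, and the data were handled as bulk RNA. The FPKM values are the authors' own, deposited as 1 table. HISAT2 2.0.5 and the genomes hg38 and mm10 come from the submitters' processing notes. How reads were counted, on which annotation and strand, and why a human build appears are not given in the sources used here.

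Because FPKM is no count, limma 3.58.1 (R 4.3.3) was fitted to log2(FPKM + 1) with 4 group means over the 8 libraries and a trend on mean expression in the prior (residual degrees of freedom 4, prior 3.46). The 10289 genes reaching FPKM 1 in 2 or more libraries were tested, and a call was a Benjamini-Hochberg adjusted p under 0.05 over them. The fit was tested on simulated data before use. Depth was recovered from the FPKM steps of single reads in 125 short RNAs, of which 114 to 124 per library came out whole within 0.02. Lengths and positions came from GENCODE M21 (GRCm38), which held 10366 of the symbols, and promoter windows of 8071 tested genes from RefSeq (GRCm38.p6).

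The comparison and the gene lists were chosen with earlier results of these data known, so lists are described by counts and medians and have no test of their own. The text names genes by a rule, which took the 15 strongest rises and the 15 strongest falls among non-overlapping calls at a mean FPKM of 5 or more over the 4 libraries, without predicted genes and pseudogenes. It added the 12 genes with the largest difference from LPS alone among those called and not overlapping in both comparisons. It also took Cd36, Tlr4, and per list up to 5 members with the largest difference and up to 2 uncalled ones with the highest level. Tnf, Nos2, Irf7 and the genes listed as not analysed were named after their values were seen. A few genes that the rule named are not reported here. Alternatives varied the pseudocount (0.1, 5), the filter (none, or mean FPKM 5) and the scaling (quantile, size factors, equal library sums without mitochondrial genes). They also varied the libraries fitted (6, 4, or each left out), the prior, the fold threshold, a replicate block and, chosen after seeing the data, a length trend.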

Additional observations from a re-analysis of the deposited data

How the results depend on the processing

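Under the alternatives run, other than a required log2 difference of at least 1, 181 of 193 named genes called against untreated cells kept their direction and their call, while 1 of 32 called against LPS alone did. Most named genes were chosen for large differences in these same data, so these shares do not stand for all calls. Against untreated cells, the 6076 calls became 3927 (2633 lower) with a mean FPKM of at least 5, where fewer genes were tested. They became 1976 (619 higher, 1357 lower) with a log2 difference of at least 1. Genes called higher numbered 2948 with size factors and 1120 with mitochondrial genes left out. Leaving out 1 library gave 4432 to 7419 calls (1198 to 2461 higher, 3234 to 4958 lower). Atp5b, not called as deposited, was called lower with quantile normalization (-0.62).

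Against LPS alone, the 183 calls (37 higher, 146 lower) became 1441 (450, 991) in the 6 libraries without the anti-CD36 group, 2307 (830, 1477) with only the 2 groups compared, 88 (17, 71) with a mean FPKM of at least 5, 121 (17 higher) with mitochondrial genes left out and 37 (9, 28) with a log2 difference of at least 1. Genes called higher numbered 18 and 63 with pseudocounts of 0.1 and 5 and 59 with size factors. Leaving out 1 library gave 1 to 1431 calls (1 to 447 higher, 0 to 985 lower, the 0 beside 925 to 1433 genes at an unadjusted p under 0.05 in limma). The anti-CD36 replicates spread most (SD of their log2 difference 0.451 against 0.137 to 0.22), and the cause of the changed counts was not tested.

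With the replicate block, 5802 genes were called against untreated cells and 46 (10 higher, 36 lower) against LPS alone. Same-numbered libraries deviated together at r = 0.53 for untreated cells and the combination but at 0.00541 for LPS and the combination and -0.645 for untreated cells and anti-CD36, so the numbers were not taken as a pairing. The mitochondrially encoded list gave no median with the length trend removed or with its genes left out.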

Other observations

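Genes that mark osteoclasts, cells that RAW264.7 can form, split into 5 called higher, 5 lower and 3 not called of 13 tested, with a median of -0.11 that was 0.13 with size factors. Tcirg1, a proton pump subunit of bone resorption, rose from FPKM 36.5 and 37 in untreated cells to 99.6 and 93.3 in the combination (1.37 ± 0.11). Acp5, tartrate-resistant acid phosphatase, rose from 0.381 and 0.364 to 2.87 and 2.17 and was at 4.68 and 4.19 with LPS alone. Nfatc1, the transcription factor that starts osteoclast formation, fell from 18.3 and 20.8 to 4.9 and 4.72 (-1.82 ± 0.24).

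Of 6 tested genes of alternative activation, the state macrophages take with interleukin 4, 2 rose, 2 fell and 2 were not called. Ccl22, which is also a chemokine, and Il4ra (1.05 and 0.911, then 1.45 and 1.49) were the rises, the latter lost with mitochondrial genes left out and without the second untreated or either combination library. Klf4 fell from 2.22 and 2.52 to 0.386 and 0.282 and Stat6, which carries the interleukin 4 signal, from 59.6 and 61.2 to 29.9 and 28.2. Of 17 heat shock and housekeeping genes 5 rose, 6 fell and 6 were not called, with a median of -0.10 that was 0.19 with size factors. The inducible heat shock gene Hspa1b fell from 4.11 and 4.1 to 0.718 and 0.847, a gene with a near-identical copy, while the mitochondrial chaperonin gene Hspe1 rose from 78.4 and 56.1 to 196 and 158. Hsp90aa1 rose from 101 and 132 to 244 and 283, and its constitutive paralog Hsp90ab1 was at 1357 and 1407 and 1113 and 1106 and was not called. Ppia was at 646 and 542 and 802 and 835 and was not called.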
